A study of Mus musculus with 6 samples.

Results

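The collagen genes of cold-exposed inguinal fat were compared between mice that lack Celf1 in adipocytes and their littermates. The members were the protein-coding genes whose mouse symbol starts with Col, a number, the letter a and a number. Of 16627 genes in the count table, 38 matched, and 37 of these encode collagen chains. The other match, Col4a3bp, encodes a ceramide transfer protein that is no collagen and was kept out of the classes. The 37 chains fell into 10 fibrillar, 8 basement membrane and 19 other collagens. The remaining 7 annotated chains, Col2a1, Col6a4, Col9a1, Col10a1, Col19a1, Col25a1 and Col26a1, were not analysed here.

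Collagens are secreted proteins in which chains rich in glycine wind into a triple helix. Fibrillar types, led by types I and III, form the banded fibres that bear tension around adipocytes and vessels. Type IV forms the sheet-like network of the basement membrane, a layer that surrounds every adipocyte and lines capillaries, and types XV and XVIII lie at that layer. Other types link the 2 systems: type VI forms beaded filaments at the adipocyte surface, FACIT types decorate fibrils, and transmembrane types sit in the cell membrane. In fat, fibroblasts and adipose progenitors are the main source of fibrillar chains, while endothelial cells, mural cells and adipocytes make type IV.

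Inguinal white adipose tissue (iWAT) was taken for RNA sequencing when the mice had spent 6 hours at 4 °C. The knockouts are 3 libraries (Celf1 AKO) from Celf1 fl/fl mice whose adipocytes lack Celf1, a protein that binds RNA and affects mRNA splicing and decay. The controls are 3 libraries (Flox control) from Celf1 fl/fl littermates. Floxed alleles and cold were thus shared by all 6 libraries. The sources used here give no Cre driver, strain, age or sex. Nothing in the labels says that each library is a separate mouse, so p-values measure the spread between libraries, which may be technical. Library totals ran from 54835348 to 64979443 counts. Celf1 itself averaged 55.1 ± 6.97 CPM (counts scaled to library size and TMM factor) in the knockouts and 128 ± 15.3 CPM in the controls (SD, n = 3 each), with no overlap, in tissue that also holds cells other than adipocytes. Its log2 fold change of -1.21 (SE 0.14) had an edgeR adjusted p of 0.122 and a DESeq2 adjusted p of 2.09e-09. Col4a3bp measured 41.0, 47.3 and 48.0 CPM in the knockouts and 52.6, 53.7 and 60.0 CPM in the controls (log2 fold change -0.29, SE 0.11; edgeR adjusted p = 0.350). The fat label was checked against adipocyte markers, with Adipoq at 2443 to 2790 CPM and Plin1 at 1465 to 1756 CPM in all 6 libraries. Acta1, a skeletal muscle actin, stood at 1039 CPM in Celf1 AKO replicate 3 and at 23.1 to 75.2 CPM in the other 5 libraries, and it was the sole skeletal muscle marker of the list that was analysed here.

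No collagen gene changed past the test over all genes. Of the 37 chains, 36 passed the filter on low counts, and 0 of these had an adjusted p under 0.05 by edgeR's quasi-likelihood test, where 0.0122% of all 16366 tested genes did (2 genes, both higher). At an unadjusted p under 0.05, 5 chains were higher and 1 was lower in the knockouts, against 6.75% of all genes higher and 6.17% lower. DESeq2 on the same 6 libraries called Col24a1 and Col6a5 higher, where it called 2.08% of all genes higher, and Col27a1 lower, where it called 0.941% lower. Limma on log2(FPKM + 1) with a filter on FPKM called 0 of the 21 chains it tested and 0 genes over all. That fit did not test Col24a1 or Col6a5. Without the filter, limma called 0 of 37 chains, and 1 gene over all. Positive log2 fold changes were found for 26 of the 36 chains (72.2%), against 47.5% of all tested genes, with a median of 0.17 against -0.02 over all. That excess depended on 1 library: without Celf1 AKO replicate 1, 18 of 36 chains were positive. In bulk tissue, fewer cells of a type and less RNA per cell cannot be told apart.

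**Figure D1:**
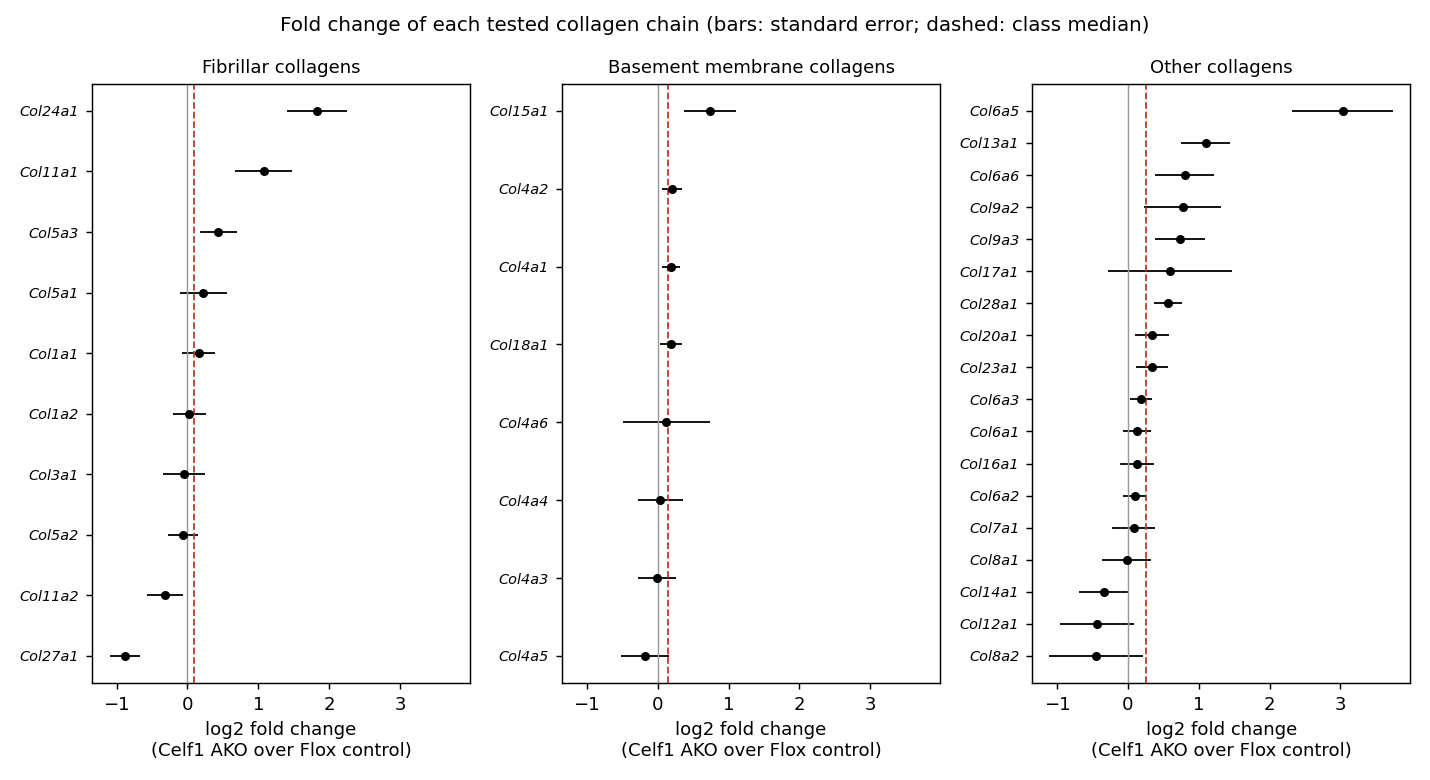
Log2 fold change (Celf1 AKO over Flox control, x axis) of each tested chain by class, with its standard error as a bar and the class median as a dashed line. Medians were 0.09 for fibrillar, 0.15 for basement membrane and 0.26 for other collagens, and the chains farthest from 0, Col6a5 (3.03) and Col24a1 (1.83), were of low abundance.

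The fibrillar collagens did not move in 1 direction. Of the 10 tested, 6 had positive and 4 negative log2 fold changes, with a median of 0.09, and the groups overlapped for 7. Col3a1 (ENSMUSG00000026043; GRCm38 chromosome 1, 45311538 to 45349706, plus strand), the single chain of type III, was the most abundant collagen gene by FPKM (fragments scaled to gene length and library size). In replicates 1, 2 and 3, in that order here and below, it measured 3150, 1995 and 1462 CPM among the knockouts and 1965, 1932 and 2935 CPM among the controls. Both the highest and the lowest library were knockouts, and the log2 fold change was -0.05 (SE 0.30).

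The type I chains shared their order of highest libraries. Col1a1 (chromosome 11, 94936224 to 94953042) measured 988, 659.9 and 582 CPM in the knockouts and 542, 679 and 778 CPM in the controls, a log2 fold change of 0.16 (SE 0.23). Col1a2 (chromosome 6, 4504814 to 4541544) measured 1801, 1181 and 1083 CPM in the knockouts and 1078, 1312 and 1602 CPM in the controls, a log2 fold change of 0.03 (SE 0.24). For both, Celf1 AKO replicate 1 was highest and Flox control replicate 3 next, so the order ran across the genotypes.

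Type V chains, which start fibrils and limit their width, spread more widely among the knockouts. Col5a1 (chromosome 2, 27886425 to 28039514) measured 275, 200.0 and 102 CPM in the knockouts and 137, 165 and 192 CPM in the controls. Col5a2, which lies beside Col3a1 (chromosome 1, 45374321 to 45503282), measured 332.5, 232 and 188 CPM in the knockouts and 258, 240.0 and 290.2 CPM in the controls. Celf1 AKO replicate 3 was the lowest of the 6 libraries for both. Their log2 fold changes were 0.22 (SE 0.33) and -0.07 (SE 0.21).

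Col5a3 (chromosome 9, 20770050 to 20815067), another type V chain, measured 338, 365 and 183 CPM in the knockouts and 226, 242 and 186 CPM in the controls. Celf1 AKO replicates 1 and 2 lay above every control and replicate 3 below every control. Its log2 fold change was 0.44 (SE 0.26; edgeR adjusted p = 0.504). Leaving out Celf1 AKO replicate 3 made it 0.68 (edgeR adjusted p = 0.0568).

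**Figure D2:**
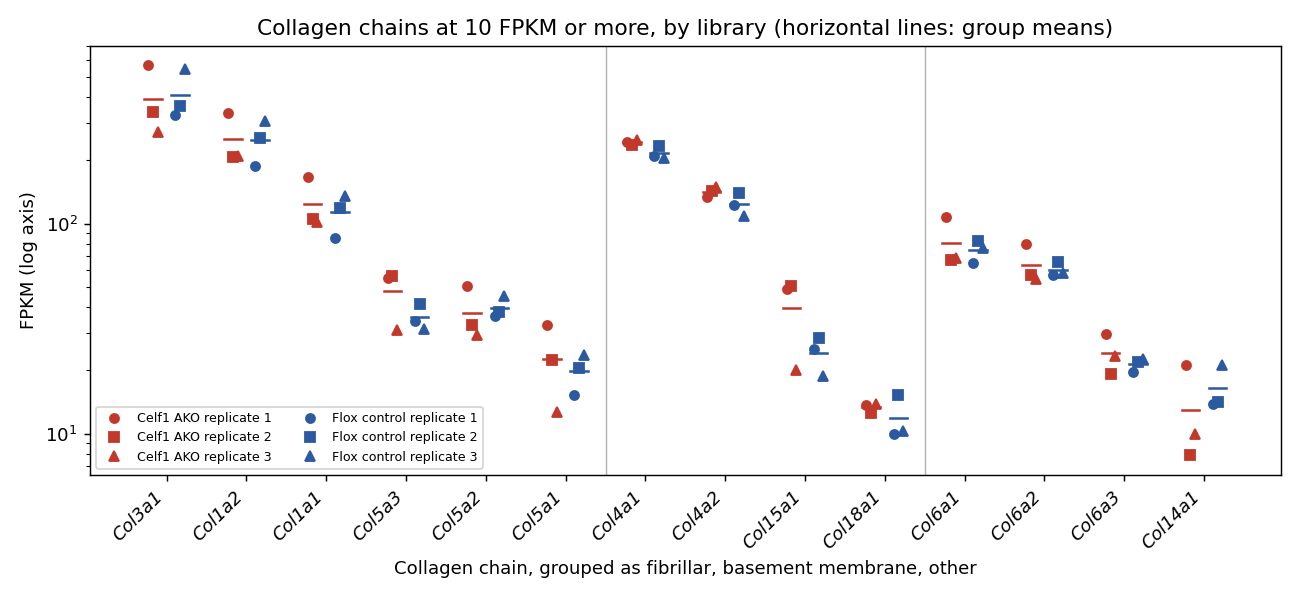
FPKM on a log axis of the 14 chains that averaged at least 10 FPKM, with a point for each library and a line at each group's mean. Among the Celf1 AKO libraries, fibrillar chains spread widely, Col4a1 and Col4a2 stayed within a narrow band, and Col15a1 split. In the Flox control libraries the fibrillar chain Col5a2 spread less than Col4a2.

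The stretches before the starts of 4 of these genes are shown because they stand for 2 orders of libraries seen among abundant chains. Col3a1 and Col5a1 were highest in Celf1 AKO replicate 1, whereas Col5a3 and Col15a1 were highest in Celf1 AKO replicate 2 with replicate 1 close by. Each window holds the 250 bases before the RefSeq start (GRCm38.p6), with motif matches on either strand in capitals. The first motif searched was CCAAT. Another was GGGCGG, which is known as the core element bound by Sp1. The next was TATAAA, the usual form of the element close to many starts. The last was TGANTCA, a looser pattern with any base in the middle, which includes the form bound by AP-1 factors.
Col3a1, chr1:45311288-45311537, plus strand: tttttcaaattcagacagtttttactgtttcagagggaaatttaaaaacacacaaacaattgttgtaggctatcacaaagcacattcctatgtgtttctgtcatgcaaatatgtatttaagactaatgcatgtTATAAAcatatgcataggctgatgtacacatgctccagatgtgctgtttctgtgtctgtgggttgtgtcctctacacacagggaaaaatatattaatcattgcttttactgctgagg
Col5a1, chr2:27886175-27886424, plus strand: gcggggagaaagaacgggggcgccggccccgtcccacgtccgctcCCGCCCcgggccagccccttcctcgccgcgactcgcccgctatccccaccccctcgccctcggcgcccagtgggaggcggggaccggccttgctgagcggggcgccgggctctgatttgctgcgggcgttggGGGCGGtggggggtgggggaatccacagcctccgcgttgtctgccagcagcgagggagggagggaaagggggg
Col5a3, chr9:20815068-20815317, minus strand: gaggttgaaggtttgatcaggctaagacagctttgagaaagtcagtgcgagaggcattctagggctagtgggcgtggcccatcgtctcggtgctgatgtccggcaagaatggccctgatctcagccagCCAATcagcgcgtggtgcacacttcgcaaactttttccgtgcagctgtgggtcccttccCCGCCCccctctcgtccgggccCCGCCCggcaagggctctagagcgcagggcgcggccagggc
Col15a1, chr4:47207762-47208011, plus strand: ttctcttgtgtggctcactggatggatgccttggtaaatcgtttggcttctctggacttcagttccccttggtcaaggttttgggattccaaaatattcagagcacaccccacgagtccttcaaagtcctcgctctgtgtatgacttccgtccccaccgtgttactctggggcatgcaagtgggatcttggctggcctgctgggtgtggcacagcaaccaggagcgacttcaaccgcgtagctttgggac

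Col5a1 and Col5a3 each held 2 matches to GGGCGG, Col5a3 held 1 to CCAAT, Col3a1 held 1 to TATAAA, and the Col15a1 window held none of the 4 motifs. The TATAAA match of Col3a1 lay at positions -117 to -112 relative to the RefSeq start, so it was not next to that start. Over the 32 windows of the 30 collagen genes with one in RefSeq, GGGCGG was present in 62.5%, against 32.7% of all 32851 windows of that length. CCAAT was present in 31.2% against 33.8%, TATAAA in 12.5% against 12.4% and TGANTCA in 3.12% against 6.75%. Some of the collagen windows lay in annotated exons, in all 250 bases for Col4a1, Col4a2 and Col20a1. Col18a1 and Col6a2 each entered with an extra window, and the abundant Col1a1 and Col5a2 had no window. The difference in GGGCGG was not tested. No matches overlap within the printed windows, and a match is one of letters only.

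Among the basement membrane collagens, Col4a1, Col4a2 and Col18a1 had log2 fold changes of 0.19 to 0.21 and Col15a1 a larger one that depended on 1 library. Of the 8 tested, 6 had positive log2 fold changes, with a median of 0.15, and 0 passed by edgeR, by DESeq2 or at an unadjusted p under 0.05. Col4a1 (ENSMUSG00000031502; chromosome 8, 11198423 to 11312826, minus strand) measured 1624, 1656 and 1596 CPM in the knockouts and 1488, 1482 and 1313 CPM in the controls. All 3 knockouts lay above all 3 controls, by a small step, a log2 fold change of 0.19 (SE 0.12; edgeR adjusted p = 0.554). Col4a2 (chromosome 8, 11312805 to 11449287, plus strand), which joins Col4a1 in the common type IV trimer, measured 864, 974 and 925 CPM in the knockouts and 846, 870.0 and 676.5 CPM in the controls. Its groups overlapped, since Flox control replicate 2 lay above Celf1 AKO replicate 1, and its log2 fold change was 0.21 (SE 0.14).

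Type IV genes lie in head-to-head pairs. The annotated starts of Col4a1 and Col4a2 overlap, those of Col4a4 and Col4a3 are 72 bases apart on chromosome 1, and those of Col4a6 and Col4a5 are 1309 bases apart on chromosome X. The last 4 chains, which form the trimers of kidney filter and other specialised membranes, were scarce here. Col4a5 averaged 2.61 ± 1.28 FPKM in the knockouts and 2.99 ± 0.90 FPKM in the controls (SD, n = 3 each), and Col4a3, Col4a4 and Col4a6 averaged under 1 FPKM in both groups. Their log2 fold changes ran from -0.17 for Col4a5 to 0.12 for Col4a6. Col4a4, Col4a5 and Col4a6 were each highest in Celf1 AKO replicate 1, whereas Col4a1 and Col4a2 were not.

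The multiplexins, types XV and XVIII, tie basement membranes to the tissue beyond, and both release fragments that restrain vessel growth. Col15a1 (ENSMUSG00000028339; chromosome 4, 47208161 to 47313167, plus strand) measured 251, 277 and 100.2 CPM in the knockouts and 140.0, 142 and 94.7 CPM in the controls. Celf1 AKO replicates 1 and 2 lay well above all controls, but replicate 3 lay among them. Its log2 fold change was 0.74 (SE 0.36; edgeR adjusted p = 0.435). Leaving out Celf1 AKO replicate 3 made it 1.07 (edgeR adjusted p = 0.0373), and Col15a1 was then the only chain called, in a fit that called 3.19% of all genes, 1.43% higher and 1.76% lower. With any other library left out, the adjusted p stayed above the threshold.

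Col18a1 (chromosome 10, 77052178 to 77166548), the source of endostatin, measured 86.4, 84.3 and 84.2 CPM in the knockouts and 67.5, 93.1 and 63.4 CPM in the controls. The knockouts agreed closely and the controls lay on either side of them, giving a log2 fold change of 0.19 (SE 0.15).

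Among the other collagens, the abundant members were the 3 chains of the usual type VI trimer. Col6a1 (chromosome 10, 76708792 to 76726168) measured 438, 292 and 271.5 CPM in the knockouts and 285, 326 and 303 CPM in the controls. Col6a2, its neighbour (chromosome 10, 76595762 to 76623630), measured 394, 295 and 257.5 CPM in the knockouts and 298, 310.1 and 276 CPM in the controls. Col6a3 (chromosome 1, 90765923 to 90843971), whose cleaved end is endotrophin, a factor linked to fibrosis of fat, measured 302, 206 and 227.5 CPM in the knockouts and 212.5, 212 and 221 CPM in the controls. In each of the 3, Celf1 AKO replicate 1 was the highest library and the other knockouts lay near the controls. Their log2 fold changes were 0.13 (SE 0.19), 0.10 (SE 0.17) and 0.19 (SE 0.16).

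The remaining other collagens were scarcer. The FACIT chain Col14a1, which binds fibrils, averaged 13.0 ± 7.13 FPKM in the knockouts and 16.4 ± 4.14 FPKM in the controls (SD, n = 3 each), and its log2 fold change was -0.33 (SE 0.35). Col12a1, a FACIT of tendon and stressed tissue, ranged from 8.63 to 36.1 CPM over the Celf1 AKO libraries and from 18.2 to 37.6 CPM over the Flox control ones, a log2 fold change of -0.43 (SE 0.52). Celf1 AKO replicates 1 and 2 lay below every control for Col12a1, and leaving out replicate 3 made its log2 fold change -1.27 (edgeR adjusted p = 0.0972). The same step made that of Col14a1 -0.15. Col16a1, another FACIT, had a log2 fold change of 0.13, and Col6a6, a later type VI chain, one of 0.80, resting on 23.8 CPM in Celf1 AKO replicate 1 where the other 5 libraries held 6.04 to 10.5 CPM. Col7a1, which anchors epidermis, and the network chains Col8a1 and Col8a2 had log2 fold changes of 0.08, -0.02 and -0.45, which became -0.24, -0.37 and -1.02 without Celf1 AKO replicate 3. Col17a1, of epithelial hemidesmosomes, Col20a1, Col23a1 and Col9a2 had 0.59, 0.34, 0.34 and 0.77, all with groups that overlapped. Without Celf1 AKO replicate 3, Col17a1 stood at 1.06 and Col16a1 at 0.26. Counts per library were only 6 to 26 for Col8a2, 5 to 20 for Col9a2 and 6 to 42 for Col17a1. Col22a1, known from the muscle-tendon junction, was removed by the filter: it held 10, 8 and 42 counts in the knockouts and 0, 5 and 2 counts in the controls, and its highest library was the one with high Acta1. The part of muscle RNA in that value was not tested.

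In 8 of the 36 tested chains the groups did not overlap, 6 higher in the knockouts (16.7%, against 7.81% of all tested genes) and 2 lower (5.56%, against 9.51%). In either direction, 17.3% of all tested genes did not overlap. Apart from Col4a1, all of these were scarce. Col24a1 (chromosome 3, 145292472 to 145552011), a minor fibrillar chain known from bone, measured 0.60, 1.06 and 1.51 CPM in the knockouts and 0.29, 0.35 and 0.24 CPM in the controls. Its log2 fold change of 1.83 (SE 0.43) had adjusted p-values of 0.247 by edgeR and 0.0119 by DESeq2 and rested on 33 to 98 counts per Celf1 AKO library and 16 to 24 per Flox control library. Col6a5 (chromosome 9, 105856078 to 105960643), a later type VI chain, measured 12.3, 2.29 and 10.8 CPM in the knockouts and 1.73, 0.44 and 0.93 CPM in the controls. Replicate 2 of the knockouts stood close to the controls and the other 2 far above, and the log2 fold change was 3.03 (SE 0.71), with adjusted p-values of 0.251 by edgeR and 0.000266 by DESeq2.

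Col27a1 (chromosome 4, 63214004 to 63334991), a fibrillar chain known from cartilage, was the one chain at an unadjusted p under 0.05 that was lower. It measured 6.33, 5.93 and 7.08 CPM in the knockouts and 8.70, 13.9 and 13.0 CPM in the controls. Its log2 fold change of -0.88 (SE 0.22) had adjusted p-values of 0.251 by edgeR and 0.0118 by DESeq2. Col11a2, also fibrillar, was the second chain with every knockout below every control, at 1.165, 1.13 and 1.045 CPM in the knockouts and 1.37, 1.55 and 1.24 CPM in the controls (log2 fold change -0.32, SE 0.25). Its partner chain in type XI, Col11a1, had the opposite sign: 2.69, 7.12 and 6.52 CPM in the knockouts, against 3.29, 1.79 and 2.68 CPM in the controls, with a log2 fold change of 1.08 (SE 0.40) and an edgeR adjusted p of 0.341.

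Col13a1, a transmembrane collagen known from the neuromuscular junction, measured 3.73, 3.86 and 2.61 CPM in the knockouts and 1.304, 2.35 and 1.10 CPM in the controls (log2 fold change 1.10, SE 0.35; edgeR adjusted p = 0.301). Col28a1, known in mice from Schwann cells of peripheral nerve, measured 5.99, 7.68 and 7.41 CPM in the knockouts and 5.21, 4.86 and 4.16 CPM in the controls (log2 fold change 0.57, SE 0.20; edgeR adjusted p = 0.321). Col9a3, a FACIT chain, measured 0.91, 0.70 and 0.77 CPM in the knockouts and 0.33, 0.62 and 0.47 CPM in the controls (log2 fold change 0.74, SE 0.35). Its exons overlap those of Tcfl5 on the other strand, and since the strand setting of the counting is not given, its reads are uncertain. An exon overlap with another counted gene held for 7 of the 37 chains, Col4a1, Col4a2, Col5a1 and Col15a1 among them.

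**Figure D3:**
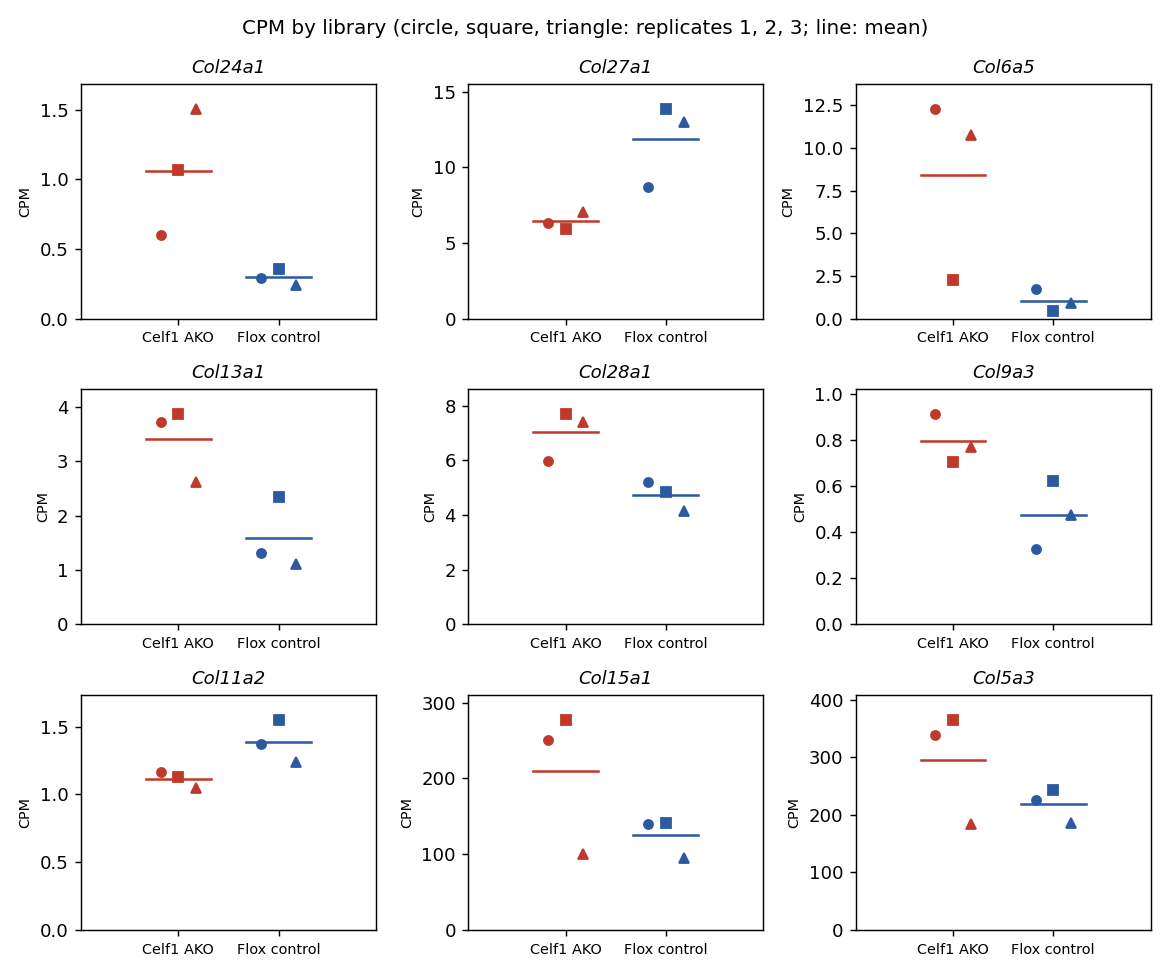
CPM by library, from 0, of 7 scarce chains whose groups did not overlap (Col24a1, Col27a1, Col6a5, Col13a1, Col28a1, Col9a3 and Col11a2) and of Col15a1 and Col5a3, where Celf1 AKO replicate 3 fell among or below the controls. Circles, squares and triangles are replicates 1, 2 and 3, and lines are group means.

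By the median, libraries of the same genotype spread more for the collagens than for genes in general. Over the tested chains, the median range within the knockouts was 0.75 on the log2(CPM + 0.5) scale, against 0.42 over all tested genes, and within the controls it was 0.50 against 0.32. The comparison was not matched for abundance and did not hold for every chain. For Col4a1, Col4a2 and Col18a1 the log2 range of CPM was 0.053, 0.17 and 0.037 in the knockouts and 0.18, 0.36 and 0.55 in the controls. Celf1 AKO replicate 1 was the highest of the 6 libraries for 19 of the 37 chains, 5 of 10 fibrillar, 3 of 8 basement membrane and 11 of 19 other, whereas it was highest for 18.6% of all tested genes. It was lowest for 0 chains. Celf1 AKO replicate 3 was the lowest library for 5 of the 10 fibrillar chains. The share of all tested genes for which each library was lowest was not computed. The median deviation of the fibrillar chains from their mean over the 6 libraries was 0.42, -0.08 and -0.28 in Celf1 AKO replicates 1, 2 and 3, and -0.14, -0.04 and 0.17 in the Flox control ones.

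**Figure D4:**
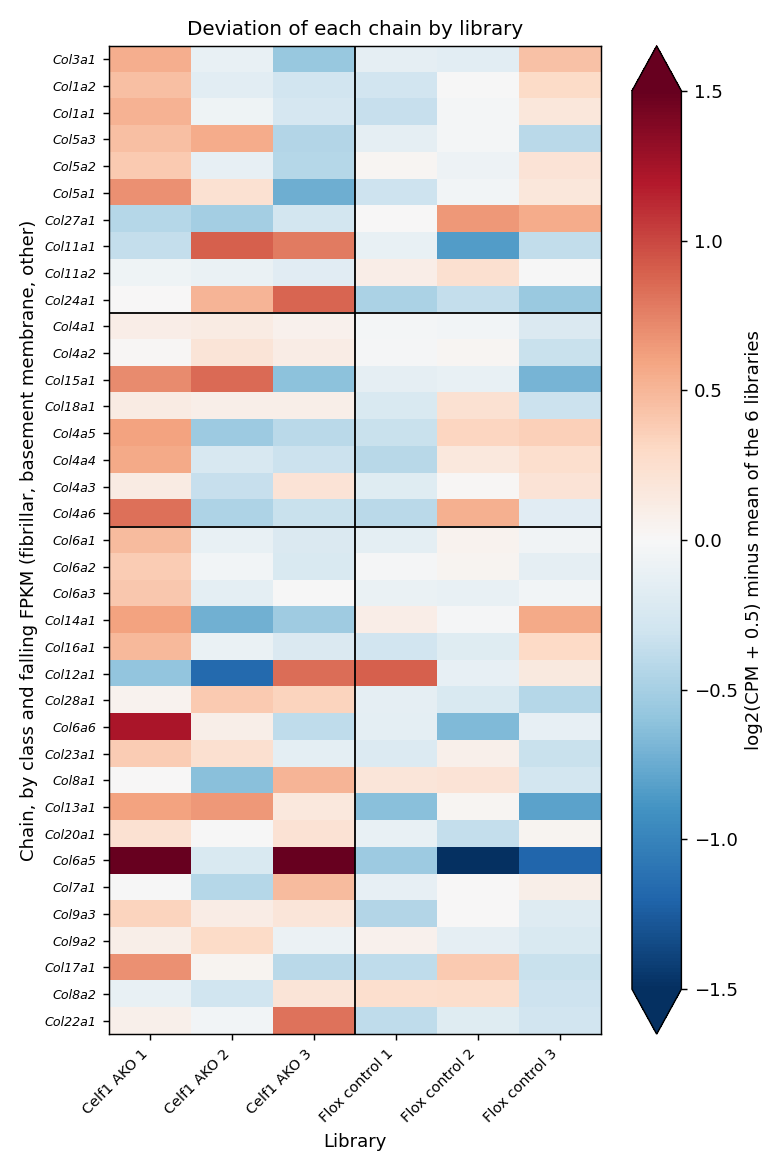
Each chain's log2(CPM + 0.5) in a library minus its mean over the 6 libraries, red above and blue below, with chains ordered by class and falling FPKM. The column of Celf1 AKO replicate 1 was red for most chains, while Celf1 AKO replicate 3 was blue for the 6 abundant fibrillar chains and close to 0 for Col4a1 and Col4a2.

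By FPKM, the size of the collagen pool and the shares of the classes in it differed by less than the spread between libraries. The 37 chains summed to 1519 ± 346 FPKM in the knockouts and 1438 ± 201 FPKM in the controls (SD, n = 3 each), with values of 1915, 1373 and 1270.0 against 1229, 1458 and 1629. Fibrillar chains made up 57.0 ± 5.70% of that sum in the knockouts and 60.3 ± 5.86% in the controls. Basement membrane chains made up 30.1 ± 5.86% in the knockouts and 26.8 ± 4.81% in the controls, and the others 12.9 ± 0.95% and 12.9 ± 1.05%. As a sum rather than a share, basement membrane chains did not overlap between groups. They summed to 448, 444.6 and 436.9 FPKM in the knockouts and 370.7, 422.7 and 347.1 FPKM in the controls. Col4a1, Col4a2 and Col15a1 made up most of these sums, and by CPM only Col4a1 of the class had groups without overlap. The sums of fibrillar and of other chains overlapped, and none of these sums was tested. The most abundant 5 chains, in falling order Col3a1, Col1a2, Col4a1, Col4a2 and Col1a1, held 76.2 ± 1.28% in the knockouts and 77.4 ± 2.15% in the controls. Col3a1 averaged 393 ± 154 FPKM in the knockouts and 412 ± 116 FPKM in the controls. Col1a2 averaged 252 ± 73.8 and 251 ± 60.5 FPKM and Col4a1 244 ± 7.37 and 216 ± 15.2 FPKM in the same order of groups, and the SD ranges of these neighbours in rank overlapped, as did those of Col4a2 and Col1a1, while those of Col4a1 and Col4a2 did not.

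Ratios between abundant chains that assemble together do not depend on library size. The FPKM ratio of Col4a1 to Col4a2 was 1.83, 1.66 and 1.68 in the knockouts and 1.72, 1.66 and 1.89 in the controls. The ratio of Col6a1 to Col6a2 ran from 1.18 to 1.33 in the knockouts and from 1.15 to 1.31 in the controls. The ratio of Col1a2 to Col1a1 was 2.02, 1.99 and 2.06 in the knockouts and 2.21, 2.14 and 2.29 in the controls. The groups did not overlap in it, but its exact two-sided permutation p was 0.1, the smallest that 3 libraries against 3 allow, and 0.75 after Benjamini-Hochberg adjustment over the 10 ratios compared. For the other 9 ratios the unadjusted exact permutation p was 0.3 or more. The ratio of Col3a1 to Col4a1, a fibrillar to a basement membrane chain, moved far more, with 2.31, 1.43 and 1.09 in the knockouts and 1.57, 1.55 and 2.66 in the controls.

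Genes that make, process and bind collagen were read from the same fit, and with all libraries 0 of them passed by edgeR or by DESeq2. Those named are the 2 of smallest p in each list unless stated. Of 23 tested genes of collagen biosynthesis and secretion, 15 had positive log2 fold changes (median 0.06). The first was Sec24d, a coat protein for export of large cargo such as procollagen, at 67.9 ± 12.9 CPM in the knockouts and 48.5 ± 10.4 CPM in the controls (SD, n = 3 each), and the next was Crtap, a part of a prolyl hydroxylation complex, with a log2 fold change of 0.25. Of 14 genes of procollagen processing and cross-linking, 7 were positive (median 0.00), with Tll1 (0.78) and Adamts14 (0.37), both procollagen proteases, of smallest p. Of 19 fibril partners, 11 were positive (median 0.11). Thbs2, a thrombospondin that affects fibril shape, was at 370 ± 129 CPM in the knockouts and 186 ± 61.5 CPM in the controls, and Sparcl1 at 209 ± 9.31 and 160.3 ± 19.6 CPM in the same order, each without overlap and with edgeR adjusted p-values of 0.302 and 0.306.

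Of 14 tested laminin, nidogen and proteoglycan genes, 8 were positive (median 0.17). Lama5, a laminin chain of vessels, was at 49.4 ± 9.99 CPM in the knockouts and 29.3 ± 7.91 CPM in the controls (SD, n = 3 each). Nid2, which links laminin to type IV collagen, measured 37.1, 34.1 and 14.4 CPM in the knockouts and 12.7, 18.0 and 14.5 CPM in the controls. As for Col15a1, replicates 1 and 2 of the knockouts were high and replicate 3 was not. Its edgeR adjusted p was 0.337, and 0.0255 once Celf1 AKO replicate 3 was left out. That reduced fit called 3.19% of all genes, where the fit to all libraries called 0.0122%. Of 10 collagen receptor and uptake genes 5 were positive, with Adgrg1, a receptor for type III collagen, at 0.62 and Ddr1 at -0.32. Of 8 collagenases and gelatinases 4 were positive, with Mmp8 at 2.32 (SE 1.15) and Mmp11 at -0.75. Leaving out Celf1 AKO replicate 3 made Mmp8 0.62 (edgeR adjusted p = 0.755) and Mmp11 -1.88 (edgeR adjusted p = 0.0373). Of 18 TGF-beta ligands and targets 12 were positive (median 0.08), with Smad3, a signal carrier, at 0.65 and Ccn1, a matrix protein, at 2.25 (SE 0.79). The groups overlapped for both. Ccn1 measured 311, 523 and 59.8 CPM in the knockouts and 116, 39.8 and 32.1 CPM in the controls. Ltbp2, which binds matrix fibres and was chosen after its values were seen, was at -1.07, with an edgeR adjusted p of 0.0315 once Celf1 AKO replicate 3 was left out. For Nid2, Mmp11 and Ltbp2 the library left out was the knockout that stood apart, so the smaller p is not separate support.

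The adipocyte markers had 4 of 10 positive (median -0.07), with Lep (-1.71) and Plin4 (0.29) of smallest p. The summed CPM of 12 fibroblast and progenitor markers was 1611, 943 and 1170 in the knockouts and 1309, 1222 and 1562 in the controls, with Celf1 AKO replicate 1 highest and Flox control replicate 3 next. The summed fibrillar chains had the same 2 libraries on top, at 6897, 4648 and 3616 CPM in the knockouts and 4220, 4588 and 6000 CPM in the controls. Below these the orders differed. Celf1 AKO replicate 2 came next for the fibrillar chains but was lowest for the markers, and replicate 3 was lowest for the fibrillar chains. Pdgfra, the defining marker, measured 117, 60.4 and 101 CPM in the knockouts and 97.8, 116 and 135 CPM in the controls. Of the 12, 3 had positive log2 fold changes and the 2 of smallest p were Dlk1 (0.82) and Pdgfra (-0.33). The part of fibroblast content in the fibrillar values was not tested.

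Endothelial markers were higher in sum in every knockout, at 1327, 1341 and 1409 CPM in the knockouts and 923, 1103 and 822 CPM in the controls. Of the 12, 10 were positive (median 0.57), with Kdr (0.67) and Cldn5 (1.48) of smallest p. Pericyte and smooth muscle markers summed to 824 to 948 CPM in the knockouts and 584 to 850 CPM in the controls, 8 of 10 positive (median 0.31), with Abcc9 (0.44) and Mcam (0.44) of smallest p. The summed type IV chains ran from 2531 to 2650 CPM in the knockouts and from 2024 to 2386 CPM in the controls. Col4a1 and Col4a2 made up most of that sum, and of the type IV chains only Col4a1 had groups without overlap. By FPKM the sum ran from 381.4 to 402.9 in the knockouts and from 317.9 to 378.9 in the controls, a narrow gap. Schwann cell markers summed to 558 to 809 CPM in the knockouts and 353 to 436 CPM in the controls, 9 of 9 positive with a median of 0.92, Prx among them (1.32), beside a Col28a1 level above every control. By edgeR 0 of these endothelial, mural and Schwann cell markers passed, and by DESeq2 3 of 12, 2 of 10 and 5 of 9 did, all higher, where DESeq2 called 2.08% of all genes higher. The part of these cells in the type IV and Col28a1 values was not tested. Of the epithelial markers 7 were analysed, with Cdh1 (1.22) and Krt19 (1.47) of smallest p, and they summed to 15.7 CPM in Celf1 AKO replicate 1 and 4.35 to 6.57 CPM in the other 5 libraries, with the keratins Krt5 and Krt14 at 0 in 4 libraries. Of the tendon and cartilage markers, Chad, Scx and Sox9 were analysed, at 0.036 to 0.995 CPM.

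**Figure D5:**
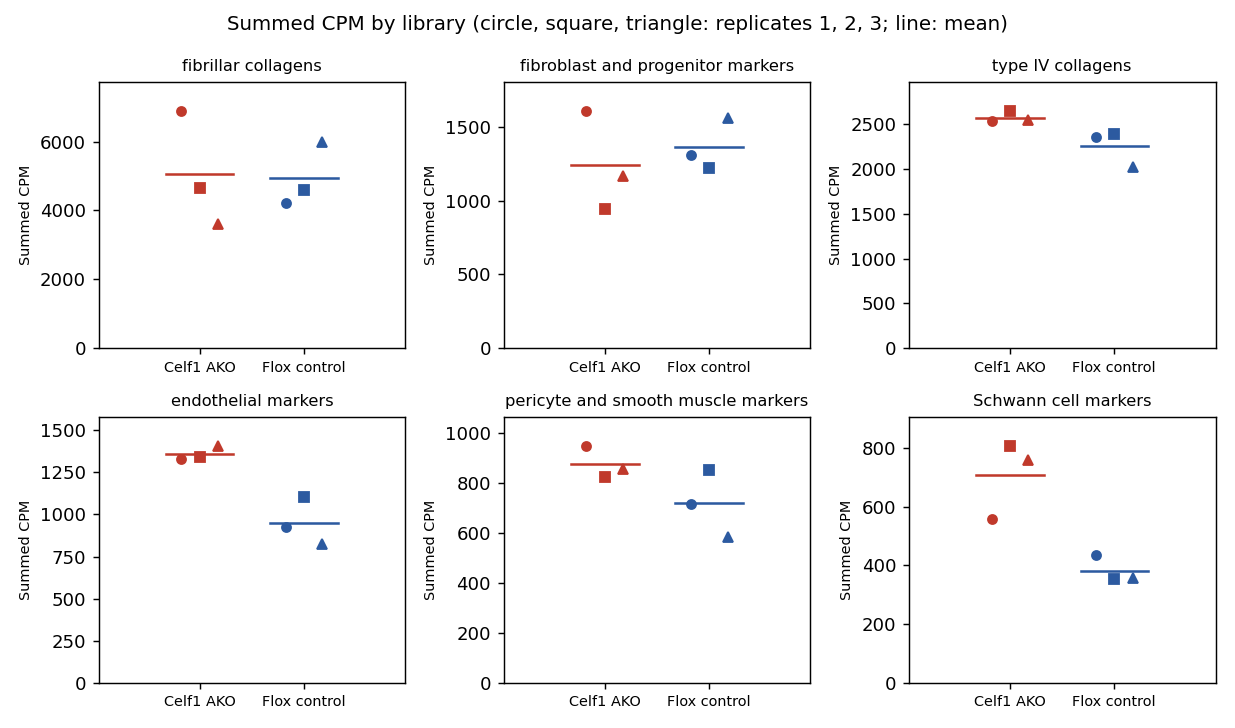
Summed CPM by library, from 0, of the fibrillar and type IV collagens and of markers of 4 cell types, with lines at group means. Fibrillar collagens and fibroblast markers were highest in Celf1 AKO replicate 1 and Flox control replicate 3, with the other libraries in different orders. Type IV collagens, endothelial markers and Schwann cell markers were higher in every Celf1 AKO library than in any Flox control library. The type IV sum was mostly Col4a1 and Col4a2, of which only Col4a1 had groups without overlap.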

How the data were processed

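RNA-seq of inguinal fat was available for 3 Celf1 AKO and 3 Flox control libraries, grouped by their titles. The authors deposited read counts as whole numbers, not normalized, with 1 row for each Ensembl gene, and FPKM values for the same rows. Tested on genes with many counts, FPKM was the count times a factor per gene and per library, within 0.0273%. HISAT2, RSEM 1.3.1 and the builds GRCm38 and mm10 are named, without roles, in the submitters' processing notes. Annotation, strand setting and gene filter are unstated in these sources. Symbols and positions came from GENCODE M21 (GRCm38; 16528 identifiers matched, 99 did not), and start windows from RefSeq.

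All counts were tested with edgeR 4.0.16 (quasi-likelihood test; R 4.3.3), TMM scaling, the default filter (16366 genes tested, 261 removed) and 1 term, genotype. A call is a Benjamini-Hochberg adjusted p under 0.05 over all tested genes. SEs are the log2 fold change over the root of F. At 1 CPM a library holds 54.9 to 67.8 counts. The test was checked on simulated counts. Alternatives used DESeq2 1.42.0, limma 3.58.1, other scalings and filters, a replicate term and each library left out. No pair of libraries agreed within sampling noise. Ratios were compared by exact permutation.

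Collagen classes, gene lists and the naming rule were chosen with earlier results of these data known. The rule takes 12 chains whatever their test, the 4 chains of smallest p per class, every called gene and otherwise the 2 of smallest p of each other list. The remaining chains are given to account for every member. A gene that the rule names is not reported here. Adipoq, Plin1, Krt5, Krt14, Sox9 and Ltbp2, and the chains chosen for groups that do not overlap, were named after their values were seen, as was the ratio of Col1a2 to Col1a1.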

Additional observations from a re-analysis of the deposited data

How the results depend on the processing

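Over all genes, edgeR called 2 higher and 0 lower; library totals alone gave 0 higher, limma on log2(FPKM + 1) and on log2(FPKM + 0.1) 0 each, limma without a filter 1 higher, and DESeq2 340 higher and 154 lower. Among collagens DESeq2 called 2 higher and 1 lower, and the other alternatives that kept all libraries called 0. The limma fits with a filter did not test Col24a1 or Col6a5. With single libraries left out, the counts over all genes ran from 0 to 237 higher and from 0 to 290 lower, with both maxima without Celf1 AKO replicate 3, and collagens called higher from 0 to 1. Celf1 had a log2 fold change of -1.21 and passed with DESeq2 (-1.19); with libraries left out it ran from -1.32 to -1.12 and passed without Celf1 AKO replicate 3.

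No label says whether replicate numbers pair libraries across the groups. Deviations of libraries with the same number correlated at 0.07, -0.0084 and 0.27, and those with different numbers from -0.35 to 0.30. With 3 libraries per group these values cannot decide whether the numbers pair libraries. A fit with the replicate block called 9 genes higher and 3 lower over all genes, 0 of them collagens, with Celf1 at -1.21 past the threshold.

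With libraries left out, the median log2 fold change ran from -0.14 (without Celf1 AKO replicate 1) to 0.24 for fibrillar, from -0.0023 to 0.24 for basement membrane and from 0.10 to 0.30 for other collagens. Single chains ran from -0.065 to 0.30 for Col1a1, -0.20 to 0.18 for Col1a2, -0.36 to 0.17 for Col3a1, -0.090 to 0.53 for Col5a1, -0.29 to 0.10 for Col5a2, -0.076 to 0.26 for Col6a1 and -0.057 to 0.22 for Col6a2. Those of Col6a3 (0.047 to 0.30), Col18a1 (0.078 to 0.37), Col4a2 (0.099 to 0.29), Col15a1 (0.48 to 1.07) and Col5a3 (0.25 to 0.68) stayed positive but moved by over 1.5 times. In the 3 limma fits Col1a2 was also negative (-0.0025), as was the fibrillar median in the 2 with a filter (-0.0025). Restricting classes to chains at 1 FPKM or more, chosen after the data were seen, moved no median beyond the spread between libraries.

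Depth limits the scarce chains: Col24a1 rested on 16 to 98 counts per library, and Col8a2, Col9a2 and Col17a1 on 5 to 42. Counting error therefore adds to the spread between libraries.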
